A study of Mus musculus with 8 samples.

Results

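miR-375 is represented in these data by 33 of 11568 distinct small RNA sequences, namely every sequence whose annotation hit starts with mmu-miR-375- in the deposited count table. Their counts were followed in 8 small RNA libraries of MIN6B1, an insulinoma line of the mouse that derives from insulin-producing beta cells. Cells received either a control plasmid or one that expresses the HENMT1ΔC-T6B methyltransferase, and their total RNA was either left non-oxidized or oxidized with sodium periodate (NaIO4) before purification. This gives 4 groups of 2 libraries: control non-oxidized, control oxidized, methyltransferase non-oxidized and methyltransferase oxidized. All groups had the same lipofection, with 4 hours in transfection complex and 24 to 72 hours in regular medium, and 5 ng of RNA entered each library. The promoter of the plasmids is not given in the sources used here. Nothing in the labels says that the 2 libraries of a group came from separate cultures, so p-values measure only the spread between these libraries, which may be technical.

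miR-375 is a miRNA of pancreatic islets and of some other neuroendocrine and epithelial tissues. In beta cells it is best known as a regulator of insulin secretion and of beta-cell mass. A miRNA is cut from a hairpin precursor, and 1 of the arms is loaded into an Argonaute protein, where bases 2 to 8, the seed, pair with target mRNAs. The 3′ end of an animal miRNA normally carries free hydroxyl groups and can be trimmed or extended by untemplated bases. Periodate destroys the free 3′ end needed for cloning, whereas a 2′-O-methylated end survives. The HENMT1ΔC-T6B fusion joins a methyltransferase that adds this mark to T6B, a peptide that binds Argonaute. The comparison of both plasmids after oxidation therefore asks which sequences had been methylated.

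All 33 sequences belong to the 3p arm. The gene Mir375 lies on the minus strand of chromosome 1 in GRCm38.p6, and the RefSeq hairpin at chr1:74900658-74900721 is printed here to show where the sequenced arm sits, with the 3p arm in capitals.
Mir375 hairpin: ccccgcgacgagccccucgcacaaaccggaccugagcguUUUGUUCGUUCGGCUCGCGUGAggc
The most abundant sequence of mmu-miR-375-3p, called the reference below, occupies chr1:74900661-74900682 on the minus strand. It is shown as deposited, in DNA letters and with the seed in capitals.
miR-375-3p reference, 22 nt: tTTGTTCGttcggctcgcgtga
Among the 33 sequences are 7 that share the reference's first base and end at successive positions. The shorter ones are printed because the results turn on their 3′ ends.
21 nt: tttgttcgttcggctcgcgtg
20 nt: tttgttcgttcggctcgcgt
19 nt: tttgttcgttcggctcgcg
18 nt: tttgttcgttcggctcgc
17 nt: tttgttcgttcggctcg
16 nt: tttgttcgttcggctc
The 33 sequences measured 16 to 23 nt and comprised the reference, 16 other sequences that match the precursor in full, 14 with an untemplated base at the 5′ end and 2 whose first base was not called. No sequence had a hit to miR-375-5p, and 0 listed sequences came from the 5′ part of the hairpin. The table holds only sequences with at least 2 counts in each methyltransferase oxidized library and at least 10 in both together, so an unlisted sequence was not necessarily absent from the other libraries.

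The listed counts per library ran from 2446036 to 6641250 in 6 libraries and were 438363 and 295094 in the control oxidized libraries. Mature miRNA sequences took 61.6 to 67.2% of the counts outside the control oxidized group and 3.14 and 3.43% within it. Of the islet markers, miR-375-3p, miR-7a-5p, miR-7b-5p and miR-184-3p were all listed. Of 18 markers of acinar pancreas, liver, muscle, blood cells, endothelium and mesenchyme, 2 were listed, miR-122-5p with 0 to 888 counts and miR-126a-3p with 0 to 311.

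The reference was abundant in every group except the control oxidized one. The counts of this mmu-miR-375-3p sequence were 419998 and 408024 in control non-oxidized RNA, 229065 and 244424 in methyltransferase non-oxidized RNA, 93575 and 118526 in methyltransferase oxidized RNA, and 87 and 143 in control oxidized RNA. The same order held in CPM, counts set to a common library size, here by TMM scaling, which takes the library's level from the bulk of its sequences. The CPM values were 216090 and 200526, then 119888 and 114430, then 34761 and 54898, and last 28.2 and 67.2. No neighbouring groups in this order overlapped. Oxidation was applied to the RNA and not to the cells. The difference between plasmids in non-oxidized RNA (log2 -0.83) did not pass the test given below. Over all mature miRNA sequences tested, the median of that difference was -0.63, so a lower CPM was not particular to miR-375. Whether the level differs at all was thus not shown. Fewer cells that hold the miRNA and less miRNA per cell could not be told apart in bulk.

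**Figure D1:**
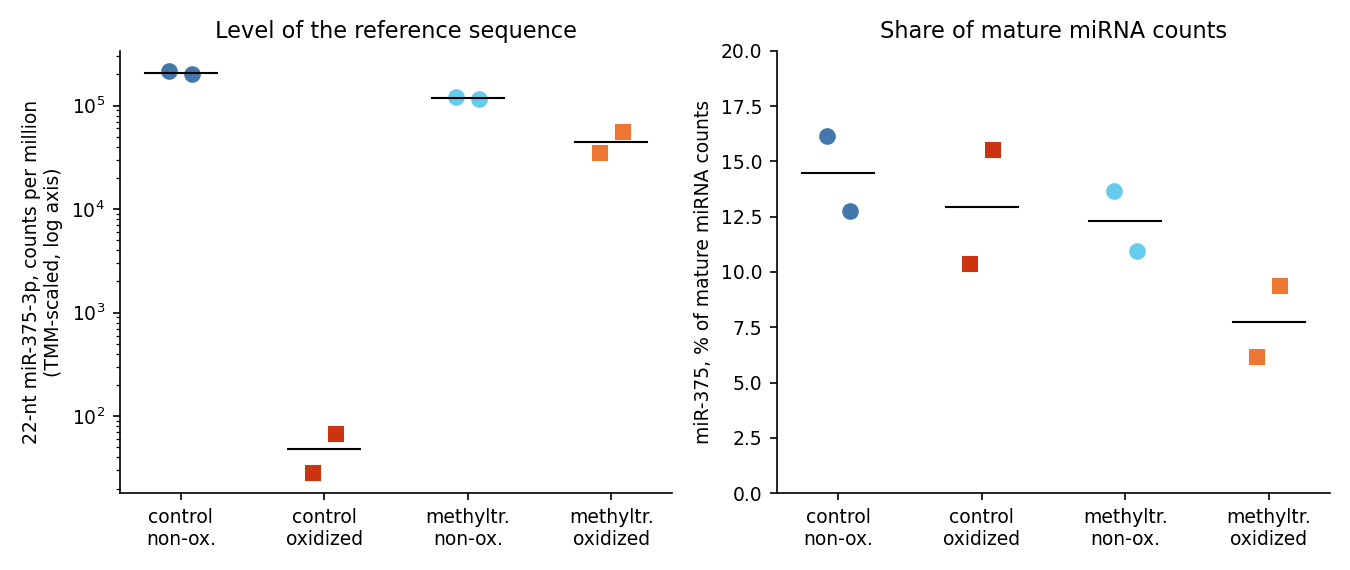
Left, level of the 22-nt reference in CPM after TMM scaling (log axis); right, share of all 33 miR-375 sequences in mature miRNA counts (percent). Points are libraries and lines are means of 2; the control oxidized libraries lie at 28.2 and 67.2 CPM on the left but at 10.3 and 15.5% on the right.

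With the control plasmid, oxidation removed nearly all of the reference. Its log2 change on oxidation was -12.10 ± 0.70 (SE, n = 2 against 2 in a model of 8 libraries; edgeR quasi-likelihood test, Benjamini-Hochberg adjusted p = 2.79e-07). With the methyltransferase plasmid the change was -1.39 ± 0.45 and missed the threshold of 0.05 (edgeR adjusted p = 0.0676). The difference of both changes, the interaction, was 10.71 ± 0.75 (edgeR adjusted p = 2.49e-06). Within oxidized RNA the reference was higher by 9.88 ± 0.65 with the methyltransferase (edgeR adjusted p = 8.98e-07). In non-oxidized RNA, where the plasmid's effect on the level itself is seen, the difference was -0.83 ± 0.44 (edgeR adjusted p = 0.648).

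These sizes depended on the scaling. With total counts in place of TMM the interaction was 7.16 and the difference within oxidized RNA 6.86, while the median over all sequences in oxidized RNA moved from 0.82 to -2.17. Fitting miRNA sequences alone set the typical miRNA near 0 for oxidation with the methyltransferase (median 0.06). The reference's change in that comparison was then 0.0089, which says only that it changed as the typical miRNA did. Comparisons with control oxidized RNA were not centred in this way. Their medians with miRNA sequences alone were 7.05 within oxidized RNA, -6.71 for oxidation with the control plasmid and 7.04 in the interaction. The loss of the reference on oxidation with the methyltransferase passed the threshold in 7 other alternatives. Leaving out either control oxidized library was among them (-1.42 each, edgeR adjusted p = 0.00731 and 0.00662).

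Of the 33 sequences, 31 passed the filter on low counts. In oxidized RNA 25 of them were higher with the methyltransferase and 0 lower, beside 42.3% of all 9851 sequences tested called higher and 3.92% lower. Listing itself required counts in methyltransferase oxidized RNA. This favours high values in that group, above all for rare sequences, among the members as in the background. The counts of members called here and in the interaction are thus no independent support. The medians of the members carry the same limit. The members' median difference in oxidized RNA was 2.98 with sequences of at most 3 counts in a group set to the bound that 3 counts allow, against 0.78 over all sequences treated alike. With the control plasmid 27 of the 31 fell on oxidation and 0 rose, where 46.4% of all sequences fell and 18.4% rose, and the medians with bounds were -4.46 and -0.89. With the methyltransferase 8 of the 31 fell and 0 rose, where 11.2% fell and 1.77% rose, and the medians were -1.23 and 0.09. In the interaction 24 were higher (background 39.6%). Of the 607 mature miRNA sequences tested, the class to which the members belong, 518 were higher in oxidized RNA, 563 fell with the control plasmid, 251 fell with the methyltransferase (median -1.39) and 520 were higher in the interaction. Without bounds, the medians in oxidized RNA were 6.49 for that class and 5.86 for the members. For oxidation with the control plasmid they were -8.69 and -6.89. No test compared the members with that class. In non-oxidized RNA 0 of the 31 were called (background 0%; edgeR), and 2 had an unadjusted p under 0.05, as had 858 of all sequences. No member was called with DESeq2 there either.

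Directions within the set were not stable to scaling. In oxidized RNA, total counts gave 13 higher and 4 lower, beside 2743 higher and 4794 lower of all 9851 sequences. Fitting miRNA sequences alone gave 9 higher and 6 lower, beside 339 and 98 of 865. For oxidation with the control plasmid, total counts gave 14 lower and 3 higher (2331 and 5202 of all sequences), and miRNA sequences alone gave 8 lower and 8 higher (411 and 91 of 865). Of the 33 sequences, 17 had at most 3 counts in both control oxidized libraries and 13 had none.

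The lengths of miR-375 sequences in control oxidized RNA differed from those in the other groups. Of the 7 sequences that share the first base, the 22-nt reference made up 75.4 ± 0.64% of the counts in control non-oxidized RNA (mean ± SD, n = 2), 76.3 ± 1.14% in methyltransferase non-oxidized RNA and 78.2 ± 1.70% in methyltransferase oxidized RNA. In control oxidized RNA it made up 7.88 ± 2.05%. The 4 shortest forms, 16 to 19 nt, made up 0.866 ± 0.0065%, 0.968 ± 0.026% and 0.540 ± 0.25% in the first 3 groups named, and 53.9 ± 10.9% in control oxidized RNA. These shares do not depend on the scaling of libraries. The control oxidized libraries, with 46.2% (95% Wilson interval 43.5 to 48.8%) and 61.6% (59.1 to 64.0%) of 1354 and 1533 counts, did not overlap any other library.

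**Figure D2:**
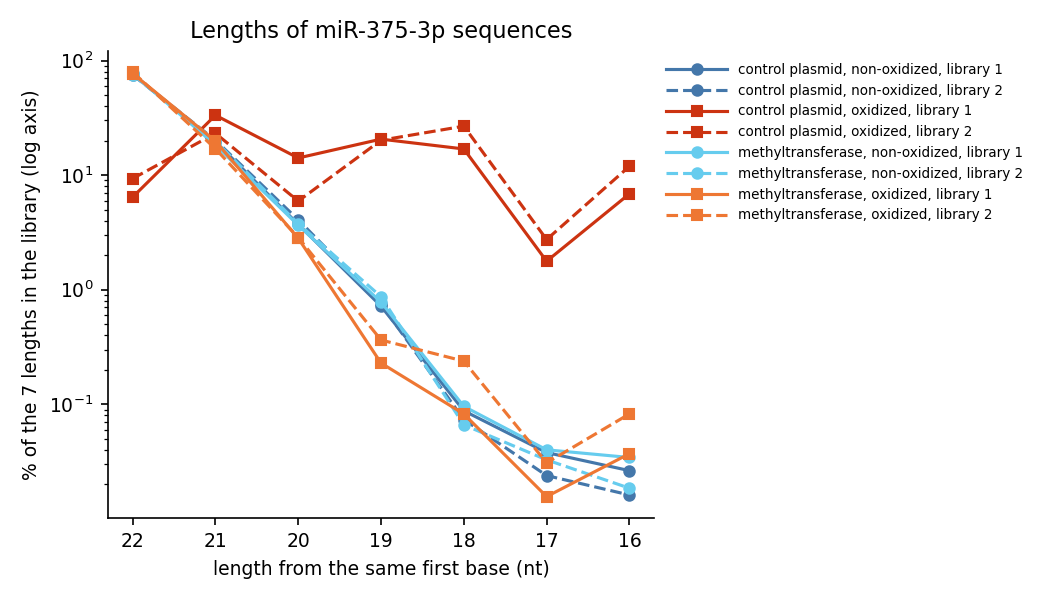
Share of each length among the 7 miR-375-3p sequences with the same first base (percent of their counts in a library, log axis), with 1 line per library. The lines of 6 libraries drop from above 74% at 22 nt to below 0.1% at 17 nt, while the control oxidized libraries stay between 1.77 and 33.3% at every length.

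The counts behind this are of different sizes at the long and the short end. The 21-nt form had 108540 and 109738 counts in control non-oxidized RNA, 451 and 355 in control oxidized RNA, 54396 and 64046 in methyltransferase non-oxidized RNA, and 24046 and 25348 in methyltransferase oxidized RNA. The 20-nt form had, in the same order, 20578 and 22166, 191 and 91, 10861 and 12205, and 3415 and 4258. Both followed the reference in being low in control oxidized RNA alone, without overlap with the other groups.

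At 19 nt the picture changed. Its counts were 3980 and 4072, 279 and 309, 2315 and 2813, and 278 and 543, so the oxidized libraries overlapped between plasmids. The 18-nt form had 486 and 401, 229 and 410, 285 and 214, and 100 and 355 counts, so that all 8 libraries lay between 100 and 486, the 2 shallow control oxidized ones included. The 16-nt form was at 146 and 88, 93 and 183, 102 and 60, and 45 and 123, again with overlap. The 17-nt form between them had fewer counts in every oxidized library than in the non-oxidized ones of its plasmid, at 210 and 130, 24 and 42, 119 and 106, and 19 and 46. It fell by 2.66 on the log2 scale on oxidation with the control plasmid and was not called with the methyltransferase (-1.99). In control oxidized RNA there were 410 counts of the 18-nt form beside 143 of the reference in library 2, and 229 beside 87 in library 1.

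The gain with the methyltransferase in oxidized RNA became smaller with each base lost from the 3′ end down to 19 nt. It was 9.88 for the reference, 6.04 ± 0.42 for 21 nt (edgeR adjusted p = 1.12e-06), 4.95 ± 0.44 for 20 nt (edgeR adjusted p = 4.04e-06) and 0.59 ± 0.45 for 19 nt (edgeR adjusted p = 0.338). The forms of 16, 17 and 18 nt were not called. The order of the values at 22, 21, 20 and 19 nt was kept with total counts and with miRNA sequences alone, although the 19-nt value was then -2.43 and -3.56, and the 20-nt value missed the threshold with miRNA sequences alone (0.73). Differences between neighbouring lengths were not tested in the model.

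With the control plasmid, oxidation lowered the 21-nt form by a log2 change of -8.45 ± 0.47, the 20-nt form by -7.68 ± 0.49 and the 19-nt form by -4.10 ± 0.51 (edgeR adjusted p = 2.78e-07, 3.72e-07 and 2.70e-05). The sign at 19 nt turned to 0.32 with total counts and to 2.14 with miRNA sequences alone. With the methyltransferase the changes on oxidation were -1.50 ± 0.35, -1.81 ± 0.38 and -2.83 ± 0.48 (edgeR adjusted p = 0.0142, 0.00755 and 0.00195). Only the 19-nt call of these held in every alternative run. The 21-nt and 20-nt calls were lost with total counts (-0.62 and -0.94), upper quartile (-0.73 and -1.05) and miRNA sequences alone (-0.11 and -0.42). The 21-nt call was also lost on leaving out any 1 methyltransferase library (-1.57 to -1.34), and the 20-nt call without methyltransferase oxidized library 1 (-1.55). The interaction was 6.95 ± 0.53 at 21 nt, 5.86 ± 0.56 at 20 nt and 1.27 ± 0.63 at 19 nt, the last not called (edgeR adjusted p = 3.75e-06, 1.13e-05 and 0.140). At 19 nt it was called without methyltransferase oxidized library 1 (1.78, edgeR adjusted p = 0.0302) and with DESeq2 size factors (1.65), and it turned to -2.27 with total counts.

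**Figure D3:**
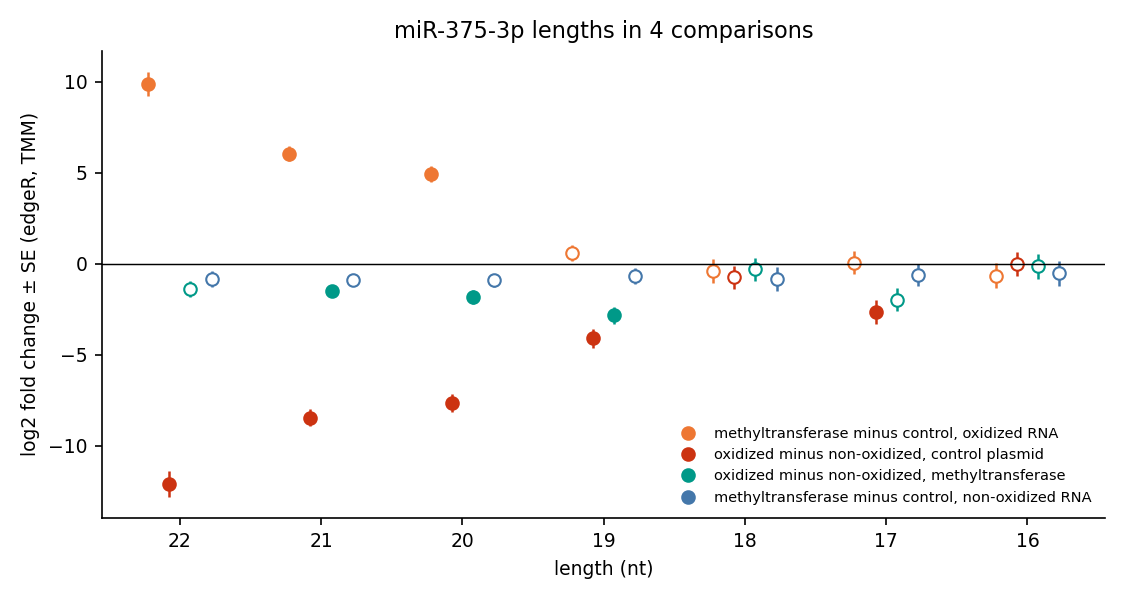
Log2 fold change ± SE (edgeR, TMM) of the 7 lengths in 4 comparisons; filled points passed an adjusted p of 0.05. The orange and red points approach 0 as length falls from 22 to 18 nt, and the blue points, non-oxidized RNA, are all open.

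As a share of the miRNA pool, miR-375 lay between 10.3 and 16.1% in 3 groups and lower in methyltransferase oxidized RNA. All 33 sequences together made up 16.1 and 12.8% of mature miRNA counts in control non-oxidized RNA, 13.6 and 10.9% in methyltransferase non-oxidized RNA, 10.3 and 15.5% in control oxidized RNA, and 6.15 and 9.35% in methyltransferase oxidized RNA. The means were 14.5 ± 2.38%, 12.3 ± 1.91%, 12.9 ± 3.66% and 7.75 ± 2.26% (SD, n = 2). The methyltransferase oxidized libraries did not overlap the others. The difference from control oxidized RNA was -5.18 points, turned to 4.74 points as a share of all listed counts, and was -2.59 points with control oxidized library 2 left out. An exact two-sided permutation test over 2 against 2 libraries cannot go below 0.333, the value reached for methyltransferase oxidized against non-oxidized and against control oxidized RNA (adjusted over 4 comparisons, 0.667). The control oxidized share rests on 13772 and 10115 mature miRNA counts and, as given above, mostly on sequences shorter than the reference: the reference alone was 10.6 ± 1.86% of mature miRNA counts in control non-oxidized RNA and 1.02 ± 0.55% in control oxidized RNA.

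The annotation rule leaves out miR-375 molecules with other ends. Counting every listed sequence that holds bases 2 to 17 of the reference without a mismatch gave 129 variants, of which 24 are among the 33 and 105 are not. Of these variants, the reference held 64.1 ± 0.13% in control non-oxidized, 8.03 ± 2.70% in control oxidized, 65.1 ± 0.75% in methyltransferase non-oxidized and 68.1 ± 1.88% in methyltransferase oxidized RNA. None of the 4 pairs of groups overlapped (exact permutation p = 0.333 each, the smallest possible, and 0.333 after adjustment over the 4). With sequences of 1 substitution added to the total, the non-oxidized groups overlapped (62.5 and 62.1% against 62.9 and 62.0%), and so did the methyltransferase groups (61.6 and 63.7% after oxidation). Shorter templated variants held 84.7 ± 0.62% in control oxidized RNA against 22.7 ± 0.81%, 22.2 ± 1.11% and 20.6 ± 1.64% in control non-oxidized, methyltransferase non-oxidized and methyltransferase oxidized RNA.

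Variants with untemplated bases at the 3′ end, known as tails, held 10.4 ± 0.53% of variant counts in control non-oxidized RNA and 9.50 ± 0.0039% in methyltransferase non-oxidized RNA. They held 6.26 ± 0.040% in methyltransferase oxidized RNA, and 2.42 ± 1.75% in control oxidized RNA, so every oxidized library was below every non-oxidized one. The control oxidized shares rest on few counts, in a total of which shorter templated variants held 84.7%. The 21-nt form with an added T had 26 and 3 counts there. Per 1000 reference counts this is 299 and 21.0, against 55.1 and 52.0 in control non-oxidized RNA, so the 2 libraries lay on opposite sides. Tailed forms of the reference are printed with the added bases in capitals, because they differ from the reference in nothing but the tail.
reference + T: tttgttcgttcggctcgcgtgaT
reference + A: tttgttcgttcggctcgcgtgaA
reference + TT: tttgttcgttcggctcgcgtgaTT
reference + TA: tttgttcgttcggctcgcgtgaTA
reference + AT: tttgttcgttcggctcgcgtgaAT
A T in the deposited letters is a uridine in the RNA. These forms were singled out after their values were seen, except the T and A forms, which are among the 5 most abundant variants outside the annotation rule.

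The reference with an added uridine had the highest mean count over the 8 libraries of the tailed forms. It had 25727 and 22627 counts in control non-oxidized, 3 and 4 in control oxidized, 10875 and 12466 in methyltransferase non-oxidized, and 1213 and 1547 in methyltransferase oxidized RNA. Per 1000 reference counts this is 47.5 and 51.0 before and 13.0 and 13.1 after oxidation with the methyltransferase, a log2 change relative to the reference of -1.87 and -1.97 when libraries are taken by number. Its own log2 change on oxidation with the methyltransferase was -3.30 ± 0.41 (edgeR adjusted p = 2.34e-04), called in every alternative that tested it.

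The adenylated reference had 6579 and 6033, 0 and 0, 2981 and 3098, and 1232 and 1408 counts. Its log2 change relative to the reference was 0.017 and -0.094, so it kept pace with the reference where the T form did not. With TA the counts were 341 and 357 before and 452 and 588 after oxidation with the methyltransferase, 1.70 and 1.76 relative to the reference. With AT they were 472 and 420 before and 24 and 27 after, -3.01 and -2.92. The TT form was at -0.13 and 0.24. The remaining 3 of the 5 most abundant variants outside the rule were a 21-nt form with T at -0.75 and -0.78, and 2 forms that begin 1 templated base earlier and carry a precursor annotation, at 0.61 and 0.45 (ending as the reference) and 0.57 and 0.12 (ending 1 base before it).

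Over all tailed variants, 25 ended in uridine and had a median of -0.57 relative to the reference, with 20 below 0, and 22 ended in adenosine and had a median of 1.02, with 5 below 0. Here and in the shares above, a tail is every base after the stretch that matches the precursor. The class therefore also holds forms with a substitution before the end, such as CGT or CGAA, and a 44-nt double copy of the reference. The reference with AG or TG added was counted as a substitution. Among those with a mean of at least 50 counts the medians were -0.81 over 13 and 0.46 over 8. The grouping by last base was made after values were seen, the variants share a target and libraries, and no test was made. Rare variants could enter the table only through counts in methyltransferase oxidized RNA, which favours high values among them.

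**Figure D4:**
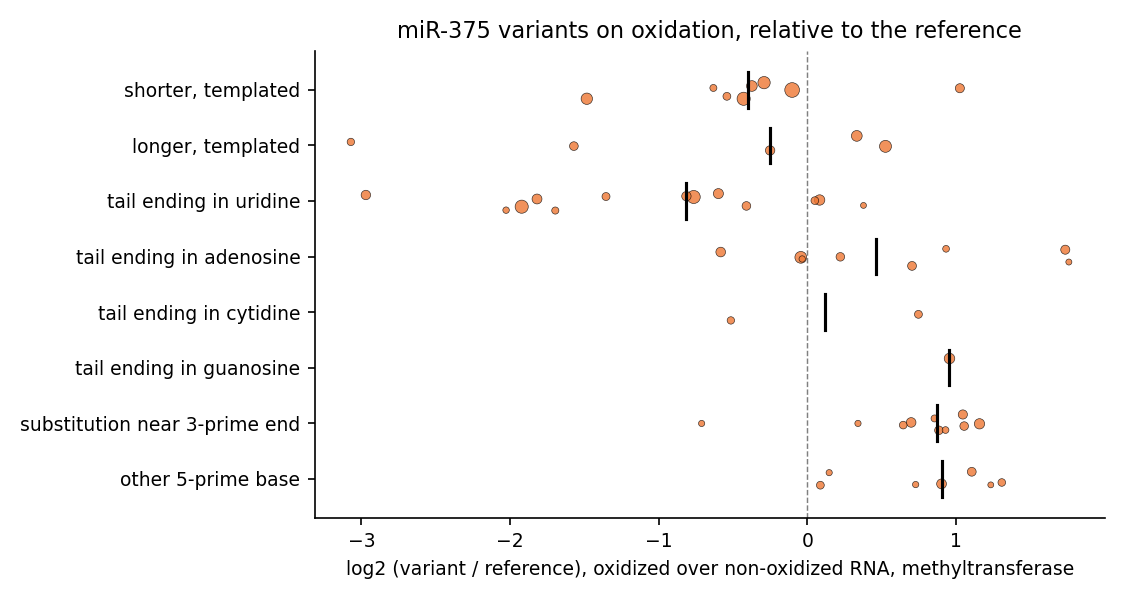
Log2 change of each miR-375 variant relative to the reference, methyltransferase oxidized over non-oxidized RNA (counts summed over 2 libraries each), by type of end; variants with a mean of at least 50 counts, larger points for more counts, black bars for medians. Uridine-ended tails have a median of -0.81 and adenosine-ended ones of 0.46.

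Changes at the 5′ end shift the seed and so the targets of a miRNA. The 33 leave out the templated forms that start 1 base earlier, which carry only a precursor annotation. The most abundant of those had 6999 and 6416 counts in control non-oxidized and 2093 and 2573 in methyltransferase oxidized RNA. Within the 33, sequences starting at the reference's first base made up 97.5 ± 0.13% of the counts in control non-oxidized RNA and 96.9 ± 0.38% in methyltransferase oxidized RNA. Those starting 1 base later made up 2.05 ± 0.13%, 1.35 ± 0.38%, 2.29 ± 0.058% and 1.91 ± 0.26% in control non-oxidized, control oxidized, methyltransferase non-oxidized and methyltransferase oxidized RNA. The most abundant of these, 21 nt with the reference's 3′ end, had 8604 and 9242, 3 and 5, 5454 and 5992, and 2056 and 2132 counts. It fell on oxidation with the methyltransferase (log2 -1.69 ± 0.38, edgeR adjusted p = 0.0112), a call lost with total counts (-0.82), upper quartile (-0.92), miRNA sequences alone (-0.30) and without methyltransferase oxidized library 1 (-1.54). Compared with the reference, it lacks the first base but keeps the 3′ end. The equally long form that lacks the last base had 451 and 355 counts in control oxidized RNA, against 3 and 5. That form was also far more abundant in control non-oxidized RNA, with 108540 and 109738 counts against 8604 and 9242. The 3 and 5 counts are too few for a precise ratio.

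Other islet and beta-cell miRNAs give the setting for these values. Of 29 listed for the purpose from general knowledge of the field, 24 were in the table; miR-204-5p, miR-148a-3p, miR-132-3p, miR-212-3p and miR-338-3p were not. In oxidized RNA all 24 were higher with the methyltransferase (42.3% of all sequences and 518 of 607 mature miRNA sequences), and in control RNA all 24 fell on oxidation (46.4%, and 563 of 607). With the methyltransferase 19 of the 24 fell on oxidation and 0 rose (11.2%, and 251 of 607 fell). Their median was -2.76, against 0.09 over all sequences and -1.39 over mature miRNA sequences. In this comparison the reference of miR-375 ranked 6 of 25 from the least negative.

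Values for the 4 most abundant show the range. miR-7a-5p, which restrains beta-cell growth and secretion, had 257381 and 370675 counts in control non-oxidized RNA, and 97237 and 143782 before against 57729 and 30034 after oxidation with the methyltransferase (log2 -1.74 ± 0.40, edgeR adjusted p = 0.0133). That call was lost with total counts (-0.86), upper quartile (-0.95), miRNA sequences alone (-0.35) and without library 2 of either methyltransferase group (-1.55 and -1.29). miR-7b-5p, of the same family, had 39967 and 66364 before and 33988 and 25821 after (-1.08 ± 0.44, adjusted p = 0.143 by edgeR), and was called without either control oxidized library (-1.11 each). miR-26a-5p had 33053 and 49410 before and 1381 and 1889 after (-4.86 ± 0.48, edgeR adjusted p = 4.92e-05), and kept this call in every alternative run. miR-200c-3p, a member of a family tied to the epithelial state and to beta-cell survival, had 17856 and 22099 before and 18875 and 24552 after (-0.10 ± 0.69, adjusted p = 0.948 by edgeR). The counts of miR-26a-5p did not overlap between these groups, whereas those of miR-200c-3p did.

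**Figure D5:**
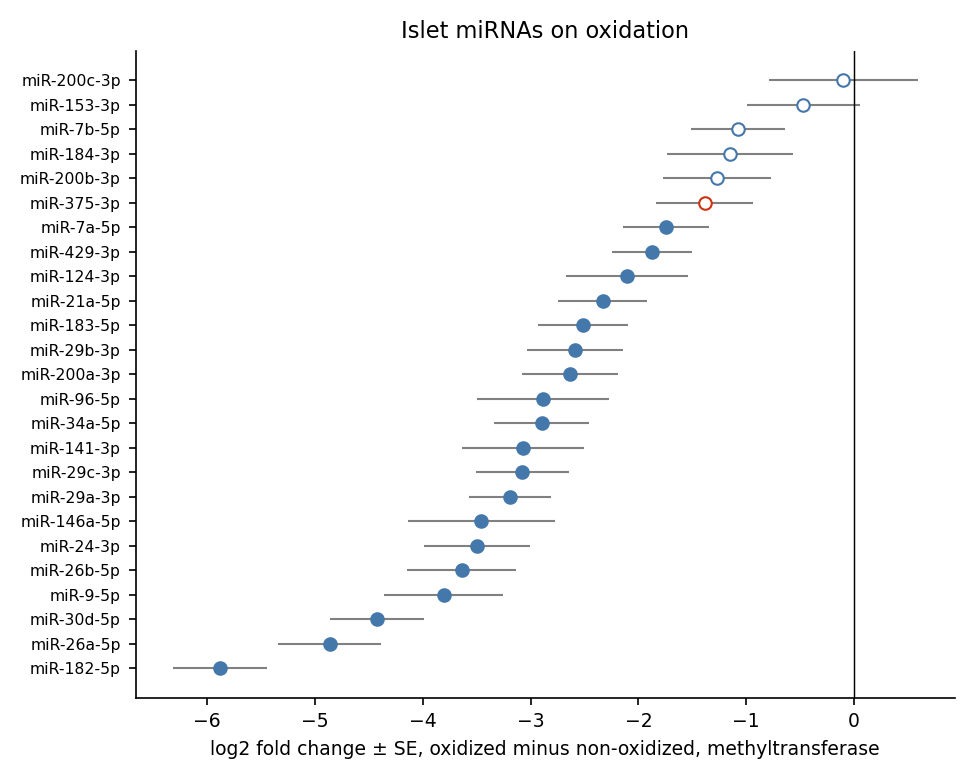
Log2 fold change ± SE (edgeR, TMM) on oxidation with the methyltransferase for the most abundant sequence of miR-375-3p (red) and of 24 other islet miRNAs; filled points passed an adjusted p of 0.05. miR-375-3p lies sixth from the top at -1.39, between miR-200b-3p and miR-7a-5p.

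Among 15 abundant miRNAs with more than 3 counts in each control oxidized library, the profiles most like that of the miR-375 reference over the 8 libraries were those of let-7f-5p, miR-7b-5p, let-7g-5p, let-7d-5p and let-7a-5p. Their root-mean-square differences in centred log2 CPM were 0.337, 0.373, 0.410, 0.454 and 0.469. The 8 points share libraries and scaling, and these 5 miRNAs had 15 to 89 counts in the control oxidized libraries.

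The authors' deposited table gives its own folds for the same sequences. For control oxidized against methyltransferase oxidized RNA, where a minus sign stands for lower in control, the authors' deposited table lists -1087 for the reference, -76.5 for 21 nt, -35.1 for 20 nt, -1.68 for 19 nt (adjusted p = 0.245 in the authors' deposited table) and 1.22 for 18 nt. For non-oxidized against oxidized RNA with the methyltransferase, the authors' deposited table lists 2.65 for the reference with an adjusted p of 0.0301, which passes a threshold of 0.05 that the value of -1.39 given above did not pass.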

How the data were processed

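Counts of reads per distinct sequence were deposited by the authors in 1 table for 8 small RNA libraries (QIAseq miRNA kit per the labels); aligner, build and use of molecular identifiers are not given in the sources used here. Its 12608 lines were merged into 11568 sequences. From the authors' deposited table, folds (signed, read as a score) and adjusted p-values were also taken; 16 other columns of per-sample values were not used. Columns of genomic hits were read as given. Sequences were placed on the RefSeq Mir375 hairpin (GRCm38.p6).

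All 9851 sequences passing filterByExpr were fitted together in edgeR 4.0.16 (TMM, quasi-likelihood, 4 groups; R 4.3.3), with p adjusted over all; the step was tested on simulated data. DESeq2 1.42.0, limma 3.58.1, other scalings and filters, a replicate block and leaving out each library were alternatives. Shares were compared by exact permutation tests (SciPy 1.17.1). Listed counts were 295094 to 6641250 per library; Wilson intervals and floors of 3 counts cover counting error only. Named were all 33 members, the 5 most abundant other variants, the 4 most abundant islet miRNAs and the 5 most alike in profile. Members and lists were chosen with earlier results of these data known.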

Additional observations from a re-analysis of the deposited data

Results flagged for a closer look

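The effect of oxidation on 3 miR-375-3p sequences was flagged as different between plasmids by the interaction in edgeR's quasi-likelihood test. This is not particular to them. The interaction was called higher for 24 of the 31 members tested, for 520 of 607 mature miRNA sequences and for 39.6% of all sequences. For the 3 flagged sequences it was 10.71 ± 0.75 (SE, log2) at 22 nt, the reference, 6.95 ± 0.53 at 21 nt and 5.86 ± 0.56 at 20 nt (edgeR adjusted p = 2.49e-06, 3.75e-06 and 1.13e-05). Groups of 2 libraries are too small to look for a library that stands apart.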

How the results depend on the processing

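For the reference, the difference within oxidized RNA, the loss with the control plasmid and the interaction kept their direction and call in all alternatives (5.76 to 10.6, -12.9 to -5.89 and 5.89 to 11.4), and the non-oxidized difference was never called (-1.04 to -0.14). Its change on oxidation with the methyltransferase passed the threshold with at least 10 counts in every library (-1.26), DESeq2 (-1.40), limma-voom (-1.42), counts summed by annotation (-1.52) and the replicate block (-1.44), ran from -1.59 to -1.11 on leaving out a library, and was 0.0089 with miRNA sequences only; the cause was not tested. Same-numbered libraries deviated together between the non-oxidized groups (correlation 0.561) but little or not at all between other groups (-0.010 to 0.144). The replicate numbers were thus not shown to pair all libraries. The main model ignored this number. With the replicate block, 0 sequences were called in non-oxidized RNA, and calls with the methyltransferase moved from 8 to 10 lower members. The share of mature miRNA counts changed most with all listed counts as denominator: 4.74 points for methyltransferase against control oxidized RNA, -9.05 for oxidation with the control plasmid and -2.44 with the methyltransferase. For the control plasmid that difference was 0.76 with precursor sequences included and -4.12 to 1.06 on leaving out a library. Adding 1-substitution sequences gave differences in the reference's share of 54.8, 0.14 and 0.21 points for methyltransferase against control in oxidized RNA, in non-oxidized RNA, and for oxidation with the methyltransferase. Leaving out a library gave -7.76 to -2.59, -3.86 to -0.48 and -6.14 to -2.94 points for the other miRNA shares, and 58.2 to 62.0, 0.51 to 1.56, -58.0 to -54.2 and 1.64 to 4.30 points for the reference's share. The 19-nt form turned sign in oxidized RNA with total counts (-2.43), upper quartile (-0.35) and miRNA sequences only (-3.56), on oxidation with the control plasmid (0.32 with total counts, 2.14 with miRNA sequences only), and in the interaction (-2.27 and -3.58). With the methyltransferase, miR-7b-5p turned to 0.31 with miRNA sequences only, and miR-200c-3p to 0.78 with total counts, 0.67 with upper quartile, 0.14 with only the libraries compared, 1.30 with miRNA sequences only and -0.32 to 0.19 on leaving out a library. Members called in oxidized RNA were 3 of 7 tested with at least 10 counts in every library, against 25 of 31, beside 60 of 1193 against 4166 of 9851 over all sequences; called lower on oxidation with the methyltransferase were 1 with total counts, upper quartile or without methyltransferase oxidized library 1 (630, 700 and 711 of all sequences), and 4 without its library 2 (713), against 8 (1100). Over all sequences, DESeq2 called 35 higher and 82 lower in non-oxidized RNA, where edgeR called 0. The 230 reference counts of control oxidized RNA limit the precision of every comparison with it.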

Other observations

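Sequences of 22 nt with 1 substitution against the reference were counted apart. Leaving out those at the last base, 62 such sequences together amounted to 5.22 and 5.74% of the reference count in control non-oxidized RNA, 8.60 and 7.78% in methyltransferase non-oxidized RNA and 15.8 and 15.9% in methyltransferase oxidized RNA. The libraries of these groups did not overlap. Rare substitutions could enter the table only through counts in methyltransferase oxidized RNA, which favours high values there. In control oxidized RNA the 42 and 35 counts of the 62 sequences were 48.3 and 24.5% of the reference count, above the other groups. Of the members, the form with the first base substituted as T1C (counted from the reference's 5′ end) had 773 and 606 counts in control non-oxidized, 2 and 1 in control oxidized, 968 and 547 in methyltransferase non-oxidized and 617 and 651 in methyltransferase oxidized RNA. Members with base 1 substituted in any way made up 0.242 ± 0.066% of miR-375 counts in control non-oxidized, 1.60 ± 1.01% in control oxidized, 0.475 ± 0.212% in methyltransferase non-oxidized and 0.946 ± 0.073% in methyltransferase oxidized RNA (SD, n = 2).

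The 22-nt member whose first base was not called had 90 and 8 counts in control non-oxidized, 141 and 10 in methyltransferase non-oxidized and 78 and 81 in methyltransferase oxidized RNA, so that it was high in library 1 of both non-oxidized groups.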
